A study of Mus musculus with 28 samples.

Results

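The H3K4me3 ChIP-seq libraries compare the promoter mark of hair follicle stem cells at 24 months with that at 6 months. They are 4 of the 28 samples of the series, chosen by the antibody named in their labels: 2 biological replicates from young mice of 6 months and 2 from old mice of 24 months. Every sample carries the strain label 132-C67BL/6J, and no genetic change or treatment is named for any of them. Skin was treated with trypsin, the epidermis was separated from the dermis, and freshly isolated cells positive for both CD34 and alpha6 integrin were sorted by flow cytometry. The labels used here state neither sex nor whether animals were pooled for a sample, so the spread between replicates may be in part technical. The chromatin was processed by ChIPmentation, in which the tagmentation enzyme adds sequencing adapters while the chromatin is still on the antibody beads. The authors' deposited table lists 21390 peaks with 1 mean level per age and no value per sample, so each level below is the authors' mean of 2 samples. Every level, change, p-value and FDR of H3K4me3 below is taken from the authors' deposited table. A level is the authors' mean normalized reads in a peak on the log2 scale, and a change is the level at 24 months minus the level at 6 months.

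H3K4me3 is trimethylation of lysine in the tail of histone H3. It is written mainly by the COMPASS family of methyltransferases, collects around the start sites of active genes and of genes held ready for activation, and is richest where the promoter holds many CpG dinucleotides. Where it lies together with H3K27me3, the mark of the Polycomb complexes, the promoter is called bivalent, and such promoters belong largely to developmental regulators. The bulge stem cells of the hair follicle are held by a set of transcription factors such as SOX9, LHX2, NFATC1 and TCF7L1, and carry CD34 and alpha6 integrin on their surface. The series title concerns bivalent promoters in ageing stem cells. The question followed here is which genes lost more, and which less, of the mark than the median peak.

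Strong promoters with a small loss were poor in CpG, as given further on with counts, so the 250 bases before the start site are printed for a pair with some of the largest losses and a pair with the smallest, 5′ to 3′ on the strand of the gene, with each CpG in capitals. The sequences are RefSeq's, on GRCm38.p6. Sox21, which encodes a SOX-family transcription factor, lies at chr14:118237031-118237280 on the minus strand. Fasn, which encodes fatty acid synthase, lies at chr11:120824548-120824797 on the minus strand. Postn, which encodes the matrix protein periostin, lies at chr3:54360857-54361106 on the plus strand. Serpinb11, a gene of the clade B serine protease inhibitors, lies at chr1:107362064-107362313 on the plus strand.
Sox21: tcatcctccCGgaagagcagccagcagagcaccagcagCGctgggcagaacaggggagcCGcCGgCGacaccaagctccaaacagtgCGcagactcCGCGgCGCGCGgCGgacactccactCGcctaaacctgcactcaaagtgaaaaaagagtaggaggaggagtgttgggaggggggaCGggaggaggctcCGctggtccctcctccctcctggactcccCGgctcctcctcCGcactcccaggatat
Fasn: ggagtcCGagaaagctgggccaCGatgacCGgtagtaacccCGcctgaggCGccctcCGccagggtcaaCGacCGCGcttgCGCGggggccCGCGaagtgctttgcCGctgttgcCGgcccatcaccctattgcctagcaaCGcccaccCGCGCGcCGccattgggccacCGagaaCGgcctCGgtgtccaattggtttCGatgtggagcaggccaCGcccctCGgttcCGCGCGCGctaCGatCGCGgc
Postn: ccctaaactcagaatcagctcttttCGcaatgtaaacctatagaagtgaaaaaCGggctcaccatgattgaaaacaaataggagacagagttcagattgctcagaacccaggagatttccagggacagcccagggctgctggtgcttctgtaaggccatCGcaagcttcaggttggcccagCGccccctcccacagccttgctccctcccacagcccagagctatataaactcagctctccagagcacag
Serpinb11: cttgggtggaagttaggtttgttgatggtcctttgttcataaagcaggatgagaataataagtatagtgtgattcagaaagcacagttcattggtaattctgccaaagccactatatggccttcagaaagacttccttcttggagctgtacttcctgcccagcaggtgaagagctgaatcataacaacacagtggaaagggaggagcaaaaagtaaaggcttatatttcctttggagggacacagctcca
The stretch before Fasn holds 33 CpGs and that before Sox21 holds 17, against 4 before Postn and 0 before Serpinb11. The median over the 8654 gene promoters with a sequence is 17 CpGs.

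The loss was general. The median peak stood 1.37 lower at 24 months on the log2 scale (a change of -1.37, interquartile range -1.56 to -1.10), which leaves 38.7% of the young level. By the deposited false discovery rate (FDR, DiffBind) under 0.05, 16921 peaks were lower in old, 79.1% of all peaks, and 60 were higher, 0.281%. Of all peaks, 13505 lie within 1 kb of a start site. Taking for each gene the one of these with the highest mean level gave 12152 gene promoters. Their median change was -1.43, 11774 of them (96.9%) were lower and 4 (0.0329%) were higher. Because the values come from sorted populations, fewer cells that carry the mark and less of the mark in each cell cannot be told apart. The scaling between libraries, and any spike-in, were not given in the sources used here. A scale factor shared by the libraries of an age would move all peaks alike. The size of the shared drop rests on such a factor, and the distance of a peak from the median does not. A factor that differs between the libraries of an age would move peaks by amounts that depend on how their reads split between them.

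The labelled cell type was checked at the promoters of marker genes. All 12 markers of hair follicle stem cells looked for had a promoter peak, at mean levels of 11.46 to 15.80. Of the 6 immune markers 0 had one, Ptprc, Cd3e and Cd74 among those without. In a wider list of 25 immune genes 2 had one, H2-Ab1 (level 9.18) and Cd68 (6.24). Of 6 fibroblast markers 3 had a promoter peak, at levels up to 10.20. In a wider list of 15 fibroblast genes 7 had one, up to 10.70 at Col6a1. Of 9 markers of endothelium, muscle and glia 4 had one, up to 10.56, and in the wider list Mbp (10.72) and Ngfr (10.75) stood slightly higher. For melanocytes it was 2 of 5 (Mitf and Dct), for the differentiated epidermis 2 of 5 (Krt10 and Lor) and for the sebaceous gland 1 of 5 (Elovl3). The part of other cell types in the differences below was not tested.

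Each change is given with a standard error implied by the deposited p-value, the absolute change divided by the two-sided normal quantile of that p. Its median was 0.29 among the 6662 promoters with a level of 10.27 or more, which is the level of the median promoter peak (called strong promoters here). The changes of these 6662 promoters had a standard deviation of 0.18. That is less than the median implied standard error. The p-value is for 24 against 6 months, so the implied error can hold differences between libraries that all peaks share. It does not measure the error of a distance from the median peak, and distances given in implied standard errors are a scale only. A promoter is said to have a larger loss when it lay 0.5 or more below the median peak, and a smaller loss when it lay 0.5 or more above it. Among strong promoters 43 had a larger loss (0.645%) and 42 a smaller one (0.63%). Of the strong promoters, 13 lay more than 2 implied standard errors below the median peak and 24 more than 2 above it. Over all 12152 gene promoters, 689 (5.67%) had a larger loss and 348 (2.86%) a smaller one, most of them weak peaks. At 68 of the 12152 either age stood at its lowest level in the table, so their change is no measured fold. The distance from the median itself has no test, since the table gives no values per sample. The threshold fell in a continuous range: Trio at -1.87 was just inside the larger loss and Bmp7 at -1.86 just outside, and Rflnb at -0.87 was just inside the smaller loss and Nhsl1 at -0.88 just outside.

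**Figure D1:**
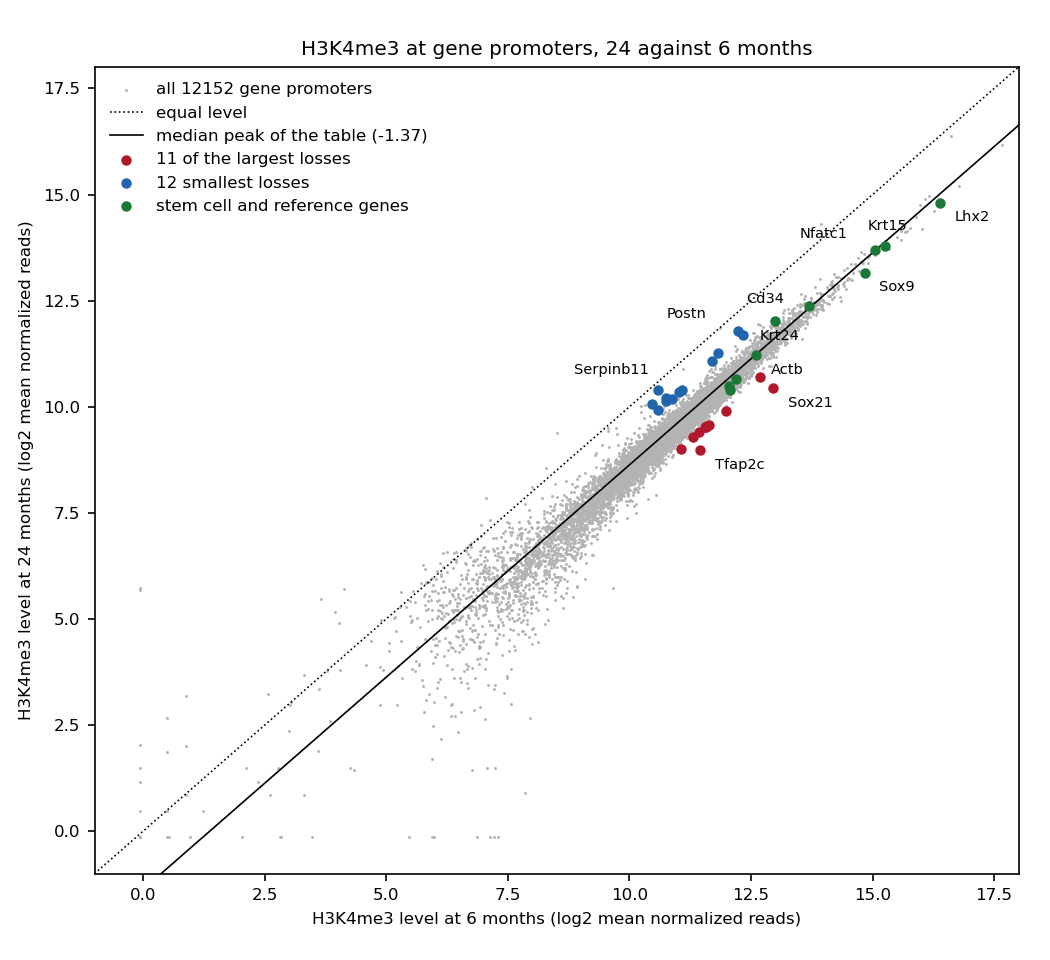
H3K4me3 level at 24 months (vertical axis) against 6 months (horizontal axis), both log2 mean normalized reads, for 12152 gene promoters (grey points). The dotted line marks equal levels and the solid line the median peak (-1.37). The cloud follows the solid line closely above a level of about 10 and widens below it; 11 of the largest losses are in red, the 12 smallest in blue and the stem cell and reference genes in green.

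Sox21 and Tfap2c had the largest losses among strong promoters. At Sox21 (peak chr14:118229355-118239642) the level was 12.96 in young and 10.44 in old, a change of -2.52 ± 0.295 (implied standard error; 2 samples per age) with a deposited FDR of 6.83e-14. The old level was 17.4% of the young one, against 38.7% for the median peak. Tfap2c, which encodes the AP-2 gamma factor of the early epidermis, went from 11.46 to 8.98, a change of -2.47 ± 0.310 (FDR 4.08e-12). In units of the implied standard error they lay at -3.90 and -3.55 from the median peak, farther than any other strong promoter on that side.

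The next ones lay close together. Srcin1, an inhibitor of the SRC kinase, stood at 11.64 in young and 9.57 in old (-2.07 ± 0.278). Tlcd2, a membrane protein gene, stood at 11.98 and 9.91 (-2.07 ± 0.316). Foxo6, a forkhead factor, stood at 11.58 and 9.53 (-2.05 ± 0.311). For Fasn the levels were 11.55 and 9.53 (-2.02 ± 0.294). Ccdc88c, a scaffold protein of Wnt signalling, had 11.30 and 9.29 (-2.01 ± 0.305), and Gse1 12.69 and 10.69 (-2.0 ± 0.311). All 6 were lower by the deposited FDR, and their distances from the median peak were -2.52 (Srcin1) to -2.02 (Gse1) implied standard errors.

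Another 3 had wide errors. Klf10, a gene quickly induced by TGF-beta, changed by -2.06 ± 0.564. Fscn1, which bundles actin, changed by -2.05 ± 0.520 and Ngfr, the p75 neurotrophin receptor, by -2.03 ± 0.686. Their implied errors were 1.8 to 2.38 times the median of strong promoters, and Fscn1, the farthest in those units, lay at -1.31 implied standard errors from the median peak. Ratios of 1.8 or more were found at 21 strong promoters, among them, picked after their values were seen, the stress and early-response genes Ddit4 (-1.76 ± 0.590) and Gadd45g (-1.78 ± 0.542) and the Wnt and BMP antagonists Sfrp1 (-1.35 ± 0.595) and Sostdc1 (-1.45 ± 0.565).

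Among strong promoters, the 10 smallest deposited p-values for a loss belonged partly to the same genes: Sox21, Tfap2c, Srcin1 and Fasn. The others were Ppp2r3d (11.99 to 10.02, FDR 8.40e-10), Crebrf (11.33 to 9.36), Klf16 (12.28 to 10.34), the X-linked deubiquitinase gene Usp9x (11.24 to 9.25), the transcription factor gene Sp1 (10.95 to 9.11) and Brwd1 (11.73 to 9.85). Their changes ran from -1.99 at Usp9x to -1.83 at Sp1. No strong promoter with an assigned gene name had a change above 0.

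Serpinb11 had the smallest loss among strong promoters of genes with an assigned name. At Serpinb11 (peak chr1:107361335-107366461) the level was 10.58 in young and 10.39 in old, a change of -0.19 ± 0.275 that did not pass the test (FDR 0.53). This promoter kept 87.7% of its young level and lay 4.29 implied standard errors above the median peak. At Serpinb10 the levels were 10.47 and 10.06 (-0.41 ± 0.311, FDR 0.217). At Postn they were 12.23 and 11.79 (-0.45 ± 0.309, FDR 0.171). Tmem140 stood at 11.82 and 11.26 (-0.56 ± 0.305, FDR 0.0817), and Adh7, the retinol-oxidising alcohol dehydrogenase of surface epithelia, at 10.76 and 10.21 (-0.56 ± 0.282, FDR 0.0587). These 5 promoters all lay at least 2.65 implied standard errors above the median peak.

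The remaining 7 of the 12 changed by -0.70 to -0.62. Retreg1, an endoplasmic reticulum protein of selective autophagy, stood at 10.76 and 10.14, and Elf1, an ETS factor, at 10.59 and 9.92. Neither was called (FDR 0.0756 and 0.051). Usp54 (11.70 to 11.07), Usp18, the protease that removes ISG15 (11.01 to 10.35), and Krt24, a type I keratin (12.34 to 11.68), were lower by FDR (0.0336, 0.0294 and 0.028). So were Col5a2, a fibrillar collagen chain (11.09 to 10.40), and Angptl7 (10.88 to 10.18). Of the 42 strong promoters with a smaller loss, 31 were still called lower, and 8 belong to gene models with no assigned name, which are counted and not named.

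Among strong promoters of genes with an assigned name, the 2 with the smallest loss lie in 1 cluster of serpin genes on chromosome 1. The other peaks of that cluster were looked at after this was seen. Serpinb8 went from 12.92 to 11.86 (-1.06 ± 0.315) and Serpinb5, which encodes maspin, from 12.41 to 11.39 (-1.02 ± 0.306). Clade B genes on chromosome 13 stood at -1.12 ± 0.301 (Serpinb6a), -1.16 ± 0.443 (Serpinb6b) and -1.23 ± 0.432 (Serpinb9). All 7 lay above the median peak, and 5 of them by less than 0.5. A second, weak peak of Serpinb10 changed by 0.53 ± 1.24, so that the mean over both Serpinb10 peaks is 0.06.

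**Figure D2:**
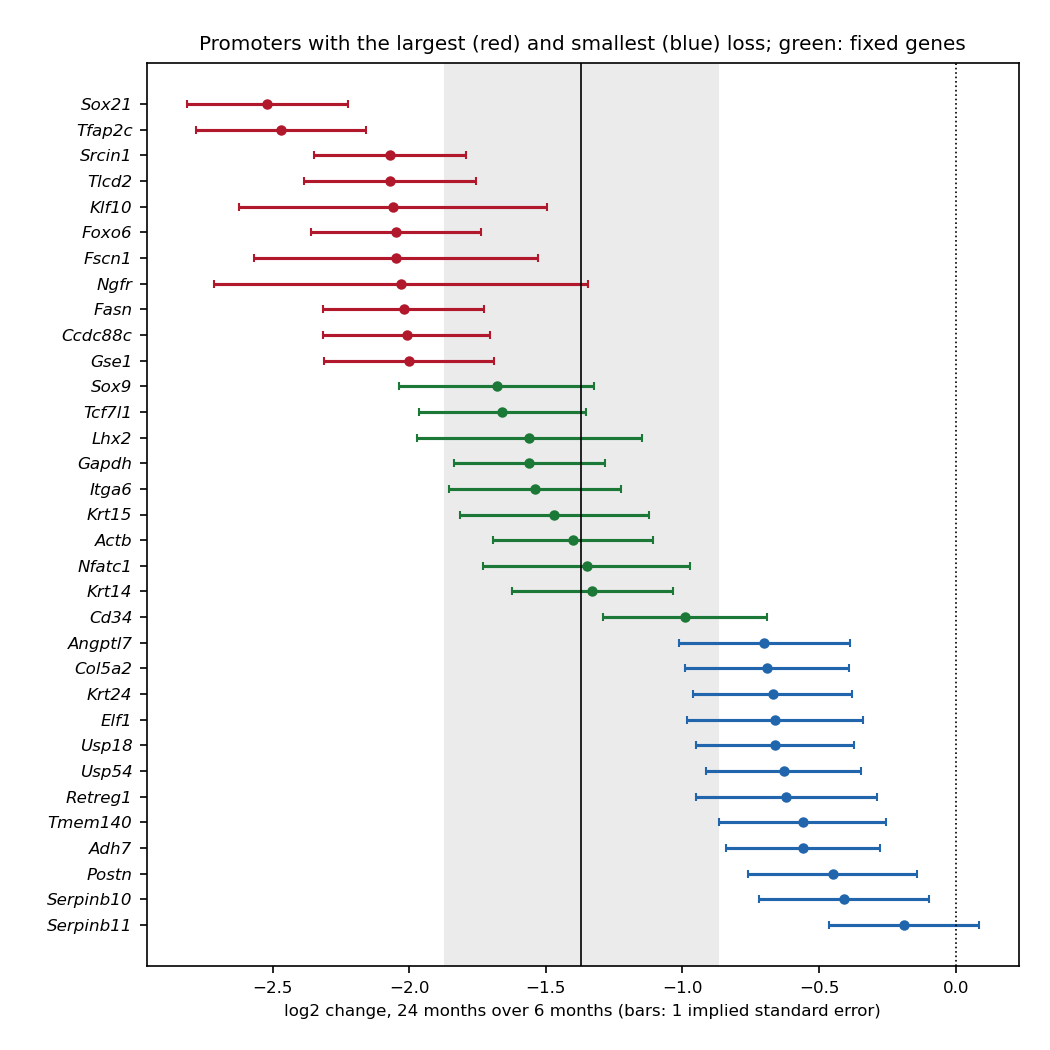
Log2 change at the promoter, 24 months over 6 months, for 11 strong promoters among those with the largest loss (red), 10 stem cell and reference genes (green) and the 12 with the smallest loss (blue); points are the authors' values and bars 1 implied standard error. The solid line is the median peak (-1.37), the grey band the range within 0.5 of it, and the dotted line no change. Sox21 and Tfap2c lie apart on the left, Serpinb11 reaches the line of no change, and Cd34 is the green gene farthest to the right.

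The transcription factor genes that define the stem cells lost the mark about as the median did. All 20 promoters of the list of stem cell transcription factors were lower, as were 96.9% of all gene promoters. The median of the list was -1.42, beside -1.43 over all gene promoters. Sox9 went from 14.84 to 13.16 (-1.68 ± 0.357), Lhx2 from 16.38 to 14.81 (-1.56 ± 0.413), Nfatc1 from 15.04 to 13.69 (-1.35 ± 0.379) and Tcf7l1 from 12.07 to 10.40 (-1.66 ± 0.306). Within the list Gli1, the target and effector of Hedgehog signalling, had the largest loss (-1.95 ± 0.325), followed by Tbx1 (-1.83 ± 0.411). Trp63, the master factor of stratified epithelia (-0.99 ± 0.348), and Hopx (-1.01 ± 0.313) had the smallest. None of the 20 lay more than 2 implied standard errors from the median peak.

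Surface and niche genes of the bulge had a median of -1.28 over 18 promoters, beside -1.43 over all gene promoters. Of the 18, 17 were lower, beside 96.9% of all gene promoters, and 4 lay below the median peak. Cd34, one of the sorting markers, went from 13.00 to 12.01 (-0.99 ± 0.301) and Itga6, which encodes the other, from 12.19 to 10.66 (-1.54 ± 0.316). Cd200 stood at 11.98 and 11.05 (-0.93 ± 0.291), Fgf18 at 10.87 and 9.11 (-1.76 ± 0.266). The keratin genes Krt15 (-1.47 ± 0.346) and Krt14 (-1.33 ± 0.294) stayed near the median. Postn was the 1 of 18 with a smaller loss, and 0 had a larger one, beside 2.86% and 5.67% over all gene promoters. The reference genes Actb (12.61 to 11.21, -1.40 ± 0.292) and Gapdh (12.05 to 10.48, -1.56 ± 0.278) lost as much as the stem cell genes, so the drop was also found at genes outside stem cell identity.

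Genes of basic cell functions stayed near the median. The 55 cytosolic ribosomal protein promoters were all lower, as were 96.9% of all gene promoters. The median of the 55 was -1.43, with a range from -1.65 (Rpl13a) to -1.24 (Rps9). For 69 nuclear genes of the respiratory chain the median was -1.35, from -1.64 (Atp5g1) to -1.02 (Ndufc2). The 57 genes of the mitochondrial ribosome (-1.40), 52 translation factors (-1.45), 33 proteasome subunits (-1.41), 28 core spliceosome genes (-1.42) and 27 chaperones (-1.42) were lower at every promoter. In these 7 lists 0 promoters had a larger or a smaller loss. Most of them are strong promoters, of which 0.645% and 0.63% reach either distance, so a count of 0 is near the background.

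The writers and erasers of histone marks showed the same drop at their own promoters. Among 23 genes of the H3K4 methyltransferases and their COMPASS partners the median was -1.42. All 23 were lower, as were 96.9% of all gene promoters. Kmt2b stood at -1.74 ± 0.298 and Smyd3 at -1.20 ± 0.304. The list drawn up for H3K4 demethylases is wider than the enzymes that act on H3K4me3. Its 6 promoters had a median of -1.42, from Kdm5c at -1.57 ± 0.282 to Kdm2b (± 0.292) and Kdm2a (± 0.281), both at -1.36. For 32 Polycomb genes it was -1.47, from Epop at -1.81 ± 0.272 to Rybp at -1.09 ± 0.310.

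Signalling lists were near the median with single genes far below it. All 37 Wnt pathway promoters were lower (median -1.42), as were 96.9% of all gene promoters. A larger loss was found at 4 of the 37 (10.8%), beside 5.67% over all gene promoters. They include the ligand gene Wnt7a (8.44 to 6.06, -2.38 ± 0.414) and the secreted inhibitor gene Frzb (9.30 to 6.96, -2.34 ± 0.384), while Rnf43, a brake on Wnt receptors, had the smallest loss (-0.97 ± 0.329). Among 12 Hedgehog genes (median -1.49) the ligand-binding antagonist Hhip (9.64 to 7.56, -2.08 ± 0.307) and Gli1 had a larger loss, and the co-receptor gene Boc stood at -0.96 ± 0.323. In the BMP and TGF-beta list (37 promoters, -1.47) Bmpr1b was lowest (-2.32 ± 0.479) and the antagonist Grem1 highest (-1.10 ± 0.334). Fgfr4 (-2.66 ± 0.408) was the 1 of 22 in the FGF and EGF list (-1.51) with a larger loss. In the Notch list (20 promoters, -1.51) 0 had a larger or smaller loss. Wnt7a, Frzb, Hhip, Bmpr1b and Fgfr4 are weak peaks, with mean levels of 7.48 to 8.94. In the 2 weakest of 8 equal groups of gene promoters by level, 29.3% and 9.74% had a larger loss.

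The 28 basement membrane promoters, 16 of them strong, had a median of -1.50 and a standard deviation of 0.57. That compares with 0.39 over all gene promoters and 0.55 over the gene promoters that are not strong. At the low end were Smoc1 (8.05 to 4.65, -3.41 ± 0.476) and Nid1 (4.34 to 1.43, -2.91 ± 1.05). Both are weak peaks, with mean levels of 7.18 and 3.52. At the high end was Lama4 (9.91 to 9.12, -0.78 ± 0.3). The 32 integrin and adhesion promoters were closer together (median -1.33, standard deviation 0.23). Their ends were Itga8, a weak peak, at -2.30 ± 0.479 and the desmoglein gene Dsg3 at -1.05 ± 0.339. The 26 genes of YAP-TEAD signalling and mechanosensing had -1.37. Ccn1 (-0.98 ± 0.282) and Ccn2 (-1.08 ± 0.318), targets of YAP, lay at one end, and the ion channel genes Piezo1 (-1.75 ± 0.308) and Piezo2 (-1.72 ± 0.381) at the other.

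Among the lineage and stress lists the spread was uneven. Of 30 epidermal differentiation genes 12 had a promoter peak, with a median of -1.55, a standard deviation of 0.69, a larger loss at 4 and a smaller one at 1. These are 33.3% and 8.33%, beside 5.67% and 2.86% over all gene promoters. The weakest of 8 equal groups of gene promoters by level had 29.3% and 17.2%. Krtdap (-3.49 ± 0.706) and Cst6 (-2.45 ± 0.413), both weak peaks, were lowest, and Krt10 (9.41 to 8.56, -0.85 ± 0.323) highest. Only 9 of 34 hair shaft and root sheath genes had a promoter peak (-1.44, standard deviation 0.15) and 10 of 18 sebaceous genes (-1.41). The 39 cell cycle genes (-1.49) ran from Ccnb2 (-2.36 ± 0.465), a weak peak, to Pcna (-1.14 ± 0.292), with a larger loss at 4 (10.3%). Among 15 genes of CDK inhibitors, p53 and Rb (-1.34), Cdkn1c, a weak peak, had the largest loss (-2.12 ± 0.461) and Rb1 the smallest (-0.96 ± 0.333). The medians were -1.45 for 25 immediate early genes, -1.40 for 25 genes of inflammation and interferon and -1.43 for 27 DNA repair genes.

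Of the lists with more than 2 promoters, the one of other developmental regulators had the lowest median. Of 103 genes 68 had a promoter peak, with a median change of -1.56 and a median level of 8.46, against 10.40 over all gene promoters. A larger loss was found at 14 of the 68 and a smaller loss at 0. By FDR 66 of the 68 were lower, beside 96.9% of all gene promoters. The share at a larger loss was 20.6%, beside 5.67% over all gene promoters. It lies between the shares of the weakest and the next weakest of 8 equal groups of gene promoters by level (29.3% and 9.74%). At a smaller loss these 2 groups had 17.2% and 1.78%, against 0 in the list. Of the 68, 22 are strong promoters, and the part of level in the share was not tested. The 14 include Sox21, the only one of them that is a strong promoter, Sox8 (8.64 to 5.49, -3.16 ± 0.445) and Gata4, whose error is wide (7.99 to 4.42, -3.57 ± 1.56). At the other end were Gbx2 (6.05 to 5.02, -1.02 ± 0.515) and Snai2 (12.58 to 11.64, -0.95 ± 0.308), a factor active in basal keratinocytes. Gbx2 is a weak peak that was not called (FDR 0.0594), and it stood at -0.08 from the median of peaks at a similar level. The 12 Hox promoters had a median of -1.50, from Hoxd1, a weak peak (-2.11 ± 0.454), to Hoxd8 (-1.26 ± 0.287).

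**Figure D3:**
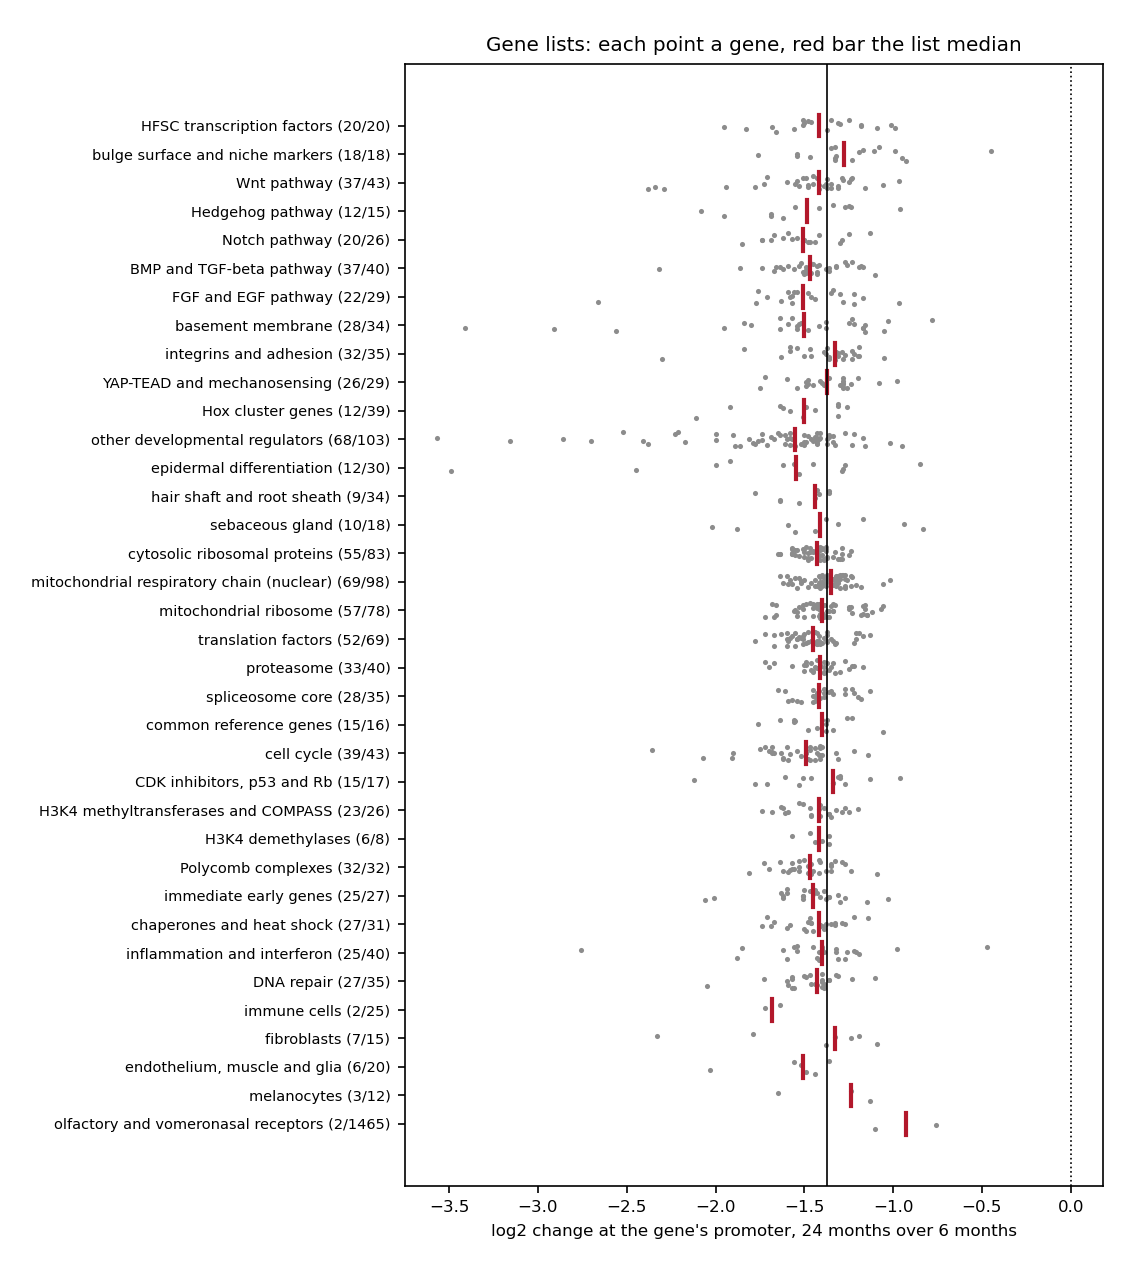
Log2 change at the promoter, 24 months over 6 months, for the members of 36 gene lists; each grey point is a gene, the red bar is the list median, and the numbers after each name are genes with a promoter peak and genes in the list. The solid line marks the median peak (-1.37) and the dotted line no change. Ribosomal, respiratory and proteasome genes form narrow groups on the line, and other developmental regulators spread to the left.

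Level and place were the features that went with the size of the loss. With the peaks split into 10 equal groups by level, the median change was -0.72 in the weakest group (level 5.70 or less), -0.86 in the next and -1.01 in the one after. It was -1.46 in group 5 and -1.41 in each of the top 3. The spread narrowed at the same time, from a standard deviation of 1.42 in the weakest group to 0.17 in group 9. The weakest group takes in 236 peaks that stood at the lowest level of the table in both ages. Their change of -0.06 is no measured fold. By place the median was -1.42 within 1 kb of a start site, -0.76 between 1 and 2 kb and -0.71 between 2 and 3 kb. It was -1.04 in introns, -1.26 in distal intergenic peaks and -1.41 in exons. Place and level went together: the median level was 10.27 within 1 kb and 6.25 between 1 and 2 kb. Weak gene promoters deviated from this order, since the weakest of 8 equal groups had a median of -1.55 with 29.3% at a larger and 17.2% at a smaller loss. Width behaved likewise, with 26.4% at a larger loss in the narrowest of 8 groups (up to 1858 bp) and 0.592% in the widest (from 6727 bp).

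Promoters that also carry a H3K27me3 peak lay lower. The 1825 gene promoters that overlap one by at least 1 base had a median of -1.50, against -1.42 for the 10327 others. A larger loss was found at 17.5% of the marked promoters (exact binomial 95% interval 15.8 to 19.4, counting error only) and at 3.57% of the others. The marked promoters were also weaker, with a median level of 9.34 against 10.50. With promoters split into 4 groups by level, the shares were 30.2% and 14.3% in the weakest group, 4.07% and 1.65% in the next, 1.04% and 0.691% in the one above, and in the strongest 0.585% and 0.488%. Among strong promoters the median was -1.39 with a H3K27me3 peak (499 promoters) and -1.41 without. A larger loss was found at 5 of the 499 (1.0%) and at 0.617% of the other strong promoters, a smaller loss at 6 (1.2%) and at 0.584%. Those 5 include Sox21 and Tfap2c, whose peaks are overlapped over their whole width. These differences were not tested. The H3K27me3 level itself changed by a median of -0.37 at the 1825 promoters and by 0.12 over all 67985 H3K27me3 peaks of the authors' deposited table. Across the 1825 genes the changes of the 2 marks had a Spearman rho of -0.12 and a Pearson r of -0.14, a description over genes that share the same libraries.

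**Figure D4:**
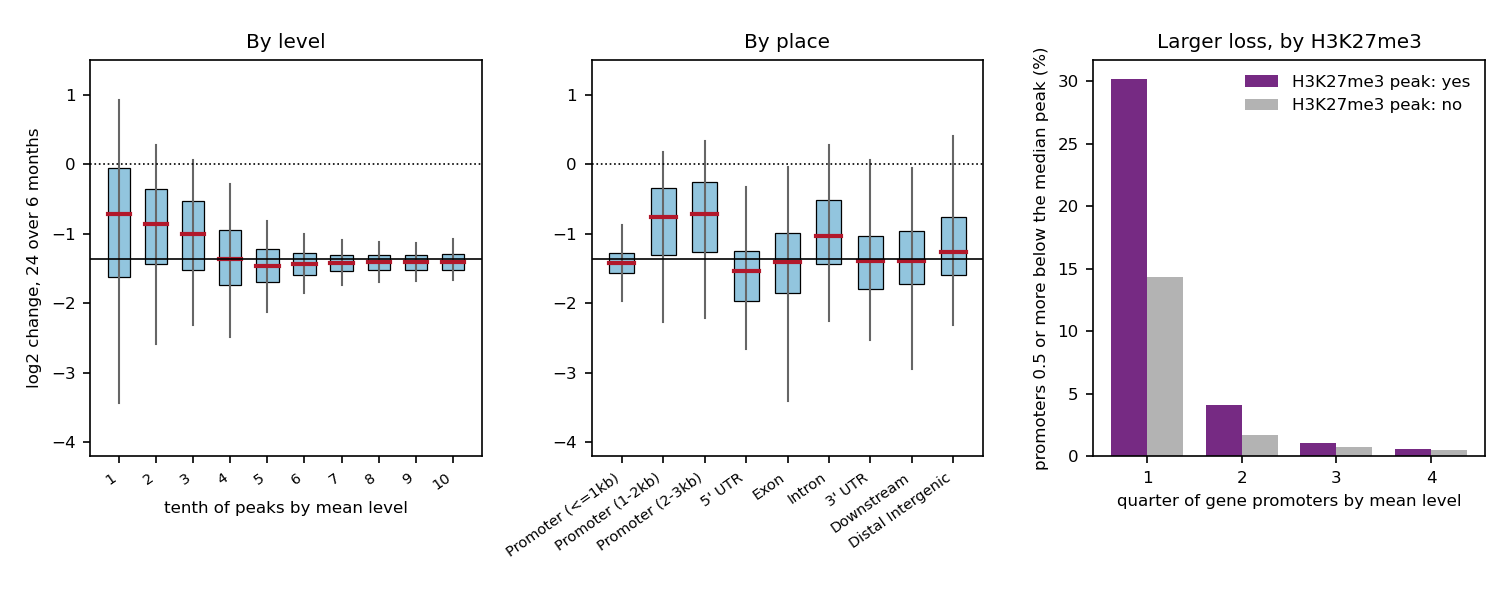
Left and middle: log2 change of H3K4me3 in 10 equal groups by mean level and by place relative to genes; boxes span the interquartile range, vertical lines the range from percentile 5 to 95, red bars the median, the solid line the median peak (-1.37). Right: share of gene promoters at a larger loss, in percent, in 4 groups by mean level, with (purple) and without (grey) a H3K27me3 peak. The loss was smaller and more scattered in weak peaks, and the difference by H3K27me3 was widest in the weakest group (30.2% against 14.3%).

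CpG content, which the ranking did not use, was low at the strong promoters with a smaller loss. A promoter sequence was found for 5101 strong promoters. Of 5 groups by CpG count, the one with the fewest (0 to 11 in 250 bases) had 22 of 1021 at a smaller loss, 2.15%. In the 4 other groups together the count was 1, in the CpG-richest. The 23 promoters concerned had a median of 4 CpGs, against 19 over all strong promoters with a sequence and 18 over the 22 with a larger loss. Serpinb10 has 0 CpGs there, Adh7 1, Krt24 2, Tmem140 4 and Retreg1 9, beside Postn with 4 and Serpinb11 with 0 as printed. The highest of the 23 is Rflnb with 34. Cd34, which is not among the 23, has 6.

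Pol2 changes at the same promoters were mostly below 0, with a median nearer to 0 where the mark lost less. In the authors' deposited Pol2 table the 2588 strong promoters with an overlapping Pol2 peak had a median Pol2 change of -2.36. At the 21 with a smaller loss of H3K4me3 it was -1.63 (interquartile range -1.76 to -1.27) and at the 21 with a larger loss -2.33 (-3.07 to -2.11). For single genes the Pol2 changes were -1.27 at Serpinb11, -1.05 at Serpinb10, -1.48 at Postn and -1.71 at Krt24, against -3.48 at Fasn and -3.25 at Gse1. Others went the opposite way, with -1.82 at Tlcd2 (larger loss) and -2.34 at Retreg1 (smaller loss). The 21 with a smaller loss include 4 gene models with no assigned name, at -0.73 to -0.21, and the 21 with a larger loss had about the median of all strong promoters. Across 3165 gene promoters the H3K4me3 and Pol2 changes had a Spearman rho of 0.22 and a Pearson r of 0.24. In the ATAC-seq table, which lists only peaks selected for a difference, 1171 of 7849 peaks lay in a H3K4me3 peak. Of these 1095 were less open in old, where H3K4me3 changed by a median of -1.42, and 76 more open, where it changed by -1.20.

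RNA changes did not follow those of the mark across the genes listed for RNA. Of the 597 genes in the authors' deposited RNA table, which is headed as old against young, 457 had a promoter peak. Among the 457 the RNA changes nearest 0 were -0.34 (Srsf5) and 0.30 (Sdcbp), so genes with little RNA change are not covered. Across the 457 the changes of H3K4me3 and RNA had a Spearman rho of -0.04 and a Pearson r of -0.12. The genes below were chosen after their values were seen, as all those with a RNA change of 1 or more in size. Of the 7 with a RNA change of 1 or more, 6 lay below the median peak for H3K4me3, as did 279 of all 457. Peg3, a paternally expressed imprinted gene, had -2.64 ± 0.308 for H3K4me3 and 1.38 for RNA, Sox21 -2.52 and 1.22, Igsf9b -2.51 ± 0.379 and 1.07. The others were Cpa4 (-2.20 ± 0.460, RNA 1.21), Galnt14 (-1.98 ± 0.343, RNA 1.11), Nptx1 (-1.82 ± 0.302, RNA 1.07) and Slitrk6 (-1.34 ± 0.444, RNA 1.16), the last of them 0.03 above the median peak.

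At the other end 5 of 7 genes lay above the median peak, as did 171 of all 457. Mef2c, a MADS-box factor, had -0.52 ± 0.351 for H3K4me3 (FDR 0.162) and -1.82 for RNA, and Tcf24 -0.35 ± 0.309 (FDR 0.293) and -1.55. Rorb had -0.84 ± 0.627 and -1.14, Timp3, an inhibitor of matrix metalloproteinases, -0.84 ± 0.287 and -1.01, and Rab3il1 -1.04 ± 0.292 and -1.01. Sema3d (-1.60 ± 0.373, RNA -1.04) and Ebf1 (-1.71 ± 0.424, RNA -1.02) lay below. At Sox21 and Peg3 the open chromatin was lower too, with ATAC-seq changes of -1.35 to -0.75 in 4 peaks at Sox21 and -0.93 at Peg3. At Mef2c it was higher, with 1.13 in 1 peak, so in these 3 genes the ATAC-seq and RNA values had opposite signs. The direction of the RNA values rests on the header of the authors' table, and no RNA level per sample was at hand to check it.

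**Figure D5:**
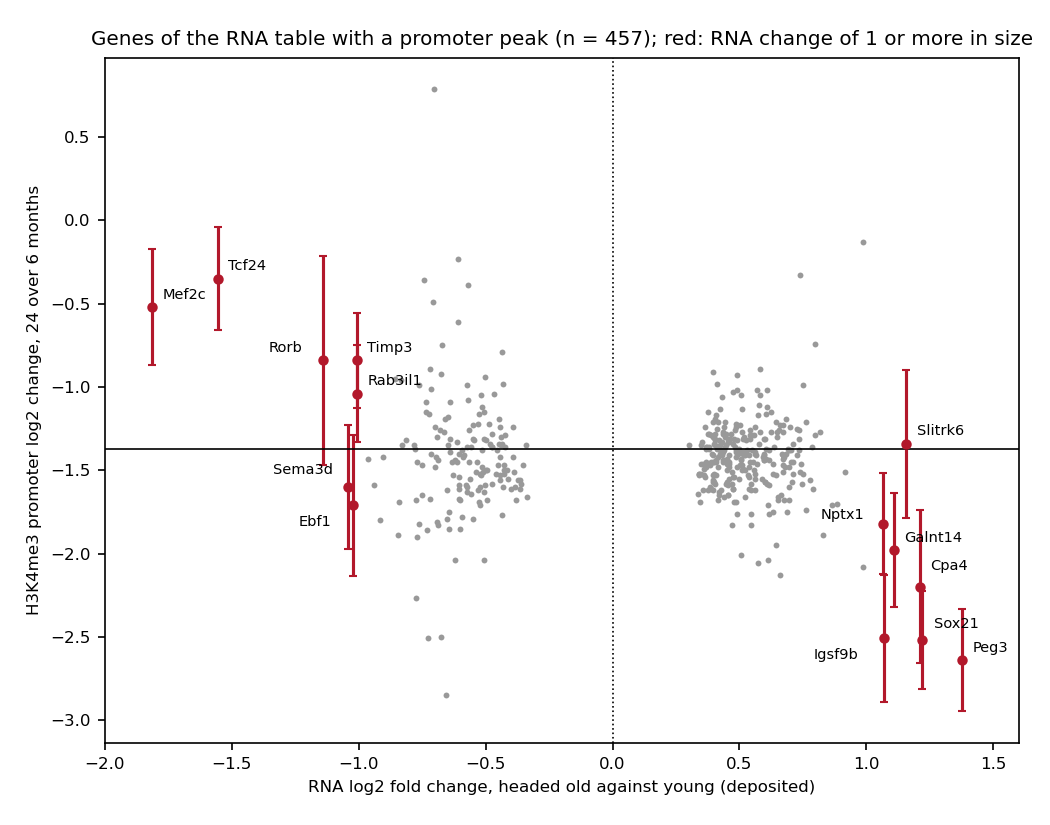
H3K4me3 change at the promoter (vertical axis, log2, 24 over 6 months) against the RNA log2 fold change as the authors' table heads it (horizontal axis, old against young) for 457 genes. Red points are the 14 genes with a RNA change of 1 or more in size, with bars of 1 implied standard error; the solid line is the median peak (-1.37). The red genes run from Mef2c and Tcf24 at the upper left to Sox21 and Peg3 at the lower right, while the grey genes show no visible trend.

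The 60 peaks that were higher in old were mostly short and far from named promoters. Their median width was 415 bp, against 2423 bp over all peaks, and 54 were under 1 kb wide. Of the 60, 11 had the lowest young level of the table (-0.07), so their change is no measured fold. On the unplaced contig JH584304.1 lay 8 and on chromosome 4 another 9, in 1 stretch of zinc finger and vomeronasal gene copies. In that stretch 28 peaks are listed, 11 with a change above 0, while the promoters of Zfp993 (-0.63), Zfp984 (-0.93), Miip (-1.26) and Mfn2 (-1.42) had changes below 0. Reads of near-identical copies can be assigned to any of them, so these values are uncertain.

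Only 5 of the 60 lie within 1 kb of a start site: 2 at Sfi1 (7.78 to 8.87 and 8.52 to 9.38) and 1 each at Sp140, LOC115486815 and Vmn2r-ps19. At Sp140 and LOC115486815 the young level was the lowest of the table. At Aida the promoter peak was lower (11.54 to 9.65, -1.89 ± 0.317), while a peak of 368 bp beside it was higher (9.18 to 10.76, 1.58 ± 0.524, FDR 0.00375). A peak of 534 bp in an intron of Cldn34d (8.88 to 10.66, FDR 1.82e-08) and one of 485 bp in an intron of Mdga2 (7.0 to 9.27, FDR 3.87e-08) were higher as well. These genes were picked after their values were seen.

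Peaks on X and on Y stood on opposite sides of the autosomal median. The 513 peaks on X had a median of -1.51 and the autosomal ones -1.37. Among strong promoters the medians were -1.48 for 49 on X and -1.41 for 6611 on autosomes, and this difference was not tested. The 25 peaks on Y had a median of 0.46, at a median level of 6.83 and a median implied standard error of 0.78. Of the 25, 15 lay within 2 implied standard errors of the median peak. On Y 4 gene promoters had changes below -1: Ddx3y (-1.66 ± 0.341), Uty (-1.57 ± 0.350), Eif2s3y (-1.49 ± 0.349) and Kdm5d (-1.40 ± 0.351). Their levels were 9.57 to 10.50 in young and 8.17 to 9.01 in old, so cells with a Y chromosome were present at both ages.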

How the data were processed

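H3K4me3 ChIP-seq covered 2 young and 2 old samples, grouped by their titles. The submitters' processing notes name BWA 0.7.15, the build GRCm38, MACS2 2.2.7.1 and DiffBind 2.14.0. The settings were not given in the sources used here. Per the file headers, the authors deposited for each peak the log2 mean normalized count in each age, the log2 difference (young minus old, turned here to old over young), a p-value and an FDR. The depth of the libraries is unknown, so no counting interval of a level can be given. The authors' RNA table holds log2 fold changes and adjusted p-values, and the deposited ATAC-seq log2 ratio is young over old.

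No new test was made, since the table holds no values per sample; calls are the authors' FDR under 0.05. Differences from the median peak, standard errors implied by the p-values (checked on simulated data) and list medians are descriptions. The implied error is imprecise for a change near 0, which the table rounds. Gene names missing for 2231 peaks were taken from a gene name table for 2078. Named genes were the 12 largest and 12 smallest losses among promoters at or above the median promoter level, the 10 smallest p-values, the ends of each list and 10 fixed genes; others are marked. One gene that this rule names is not reported here. Ribosomal, respiratory, translation, proteasome and receptor lists were built by symbol pattern (Ndufa also takes in assembly factors). Members and lists were chosen with earlier results of these data known. Alternatives covered the FDR (0.01), lowest-level peaks, a level filter, the promoter choice, the centre and the distance (0.3 and 1). Overlaps used bedtools 2.31.1 (at least 1 base); other steps used Python 3.11.15, numpy 2.4.6, scipy 1.17.1, pandas 2.3.3 and matplotlib 3.10.9.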

Additional observations from a re-analysis of the deposited data

How the results depend on the processing

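No paired analysis was possible because the table gives 1 mean per age and no value per sample, and for the same reason no replicate could be left out. Against 16921 lower and 60 higher peaks, keeping only peaks at or above the median level left 10633 and 10, and an FDR under 0.01 left 36 higher. The 4 gene promoters called higher became 2 without peaks at the lowest level, 0 with the level filter and 8 with promoters within 3 kb. The level filter left 144 of 689 promoters with a larger loss, 70 of 348 with a smaller loss, 1 of 14 developmental regulators with a larger loss and 3.84% in place of 17.5% of the H3K27me3-marked promoters; fewer and stronger peaks enter it. A distance of 0.3 gave 1753, 735, 24 and 30.5%, and a distance of 1 gave 203, 153, 7 and 6.74%. Promoters within 3 kb gave 584 with a smaller loss. For the H3K27me3-marked share, centring on ribosomal protein promoters gave 15.7% and an overlap of at least 0.2 of the peak 21.8%. The alternatives for that share, apart from the overlap, for single genes and for the promoter choice over all genes were chosen after seeing the data. Averaging all promoter peaks turned Serpinb10 to 0.06; the cause is its second, weak peak. The other 37 of 58 repeats of these main results stayed within 1.5 times, their interval or their error, and 108 repeats of list medians ran from -1.68 to -0.93. Limits are the number of samples, 2 per age, and the weak peaks, which have wide implied errors.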
